A study of Mus musculus with 2 samples.

Results

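The SLAM family receptors are 9 genes of the 32285 in each of the 2 count matrices, and they were taken by symbol: Cd84, Slamf1, Slamf6, Slamf7, Slamf8, Slamf9, Cd48, Ly9 and Cd244a. Their transcripts were followed in single-cell RNA sequencing of leukocytes from female BALB/c mice (BALB/cAnNCrl in the labels), aged 7 to 8 weeks and bearing liver metastases of 4T1, a mouse mammary carcinoma line. CBL0137, a curaxin that traps the histone chaperone FACT on chromatin, or its vehicle was given by hepatic arterial infusion (HAI), and cells were collected 5 days later. The vehicle group carried the antibody hashtag A0301, the low dose group A0305 and the high dose group A0310, and the amounts given as low and as high dose are not stated in the sources used here. All 3 groups carried the tumor. Each group was 1 pool of 2 mice per library, so there were no replicates and no test between mice could be made. Every interval given here is a 95% interval for counting error only. The methods describe cells isolated with CD11b magnetic beads and the labels describe leukocytes from a density gradient. Cells with T, B and NK cell transcripts were present, and the SLAM family was therefore described in myeloid and lymphoid cells alike.

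SLAM (signaling lymphocyte activation molecule) receptors are surface proteins of the immunoglobulin superfamily found on most blood cells. Most bind a copy of themselves on a neighbouring cell, while Cd244a binds Cd48, which is held in the membrane by a lipid anchor and has no cytoplasmic tail. The tails of most other members carry tyrosine switch motifs that recruit the small adaptors SAP (Sh2d1a) and EAT-2 (Sh2d1b1, Sh2d1b2), the kinase Fyn, or the phosphatases Ptpn6, Ptpn11 and Inpp5d. The family is known for tuning contacts between T cells, B cells and NK cells, and in myeloid cells for adhesion and the control of activation. Cd84 in myeloid cells and Cd244a in NK cells were singled out by the study from these same libraries, so their values here are not independent evidence of a direction.

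The cells were assigned to groups by the 15-base oligonucleotides on the hashtag antibodies, shown here because every comparison between groups rests on them (5′ to 3′).
A0301, vehicle: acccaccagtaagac
A0305, low dose: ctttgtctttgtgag
A0310, high dose: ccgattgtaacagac

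The 9 genes lie within 1031376 bases of mouse chromosome 1, from 171559193 to 172590568 on GRCm38 (GENCODE M21). Cd84 spans chr1:171839697-171890718 and Cd244a spans chr1:171559193-171609746, both on the plus strand. Ly9 lies on the minus strand within the span of Cd244a, with 18787 shared bases, and the sources used here do not say whether counting used strand, so reads in that stretch could belong to either gene. The switch motif was searched in the longest coding transcript of each gene as a threonine codon, any codon, a tyrosine codon, any 2 codons, then a valine or isoleucine codon. It occurred 4 times in Cd244a, 2 times each in Cd84, Slamf1, Slamf6 and Ly9, 1 time in Slamf7 and 0 times in Slamf9. Slamf8 and Cd48 had 1 match each, at codons 114 to 119 of 278 and 105 to 110 of 240. Neither match lies near the end of its coding sequence, and for Cd48 it cannot be in a tail. The matches of Cd84 and Cd244a are printed because the results in neutrophil-like cells turn on these members. Capitals mark the tyrosine codon, coordinates are GRCm38 and the strand is plus.
Cd84, chr1:171884605-171884622: acagtaTATgctgtagtt
Cd84, chr1:171885601-171885618: accattTATtcctcagtg
Cd244a, chr1:171577838-171577855: acaataTATgaatatgtc
Cd244a, chr1:171579144-171579161: accatgTACtctatgata
Cd244a, chr1:171580788-171580805: acagtaTATtcagtagtc
Cd244a, chr1:171581685-171582806, across an intron: accgtgTACgaggaggtt

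Cd84 and Cd244a were highest in the same neutrophil-like clusters, as given further on, so the 250 bases before their transcription starts are shown, from RefSeq on GRCm38.p6. Entries were found for 8 of the 9 members, all but Ly9. Capitals mark matches to AP-1 (TGANTCA) and RUNX (TGTGGT), searched on both strands together with ETS (GGAAGT), the NF-kB motif and the interferon response motif.
Cd84, chr1:171839447-171839696, plus strand: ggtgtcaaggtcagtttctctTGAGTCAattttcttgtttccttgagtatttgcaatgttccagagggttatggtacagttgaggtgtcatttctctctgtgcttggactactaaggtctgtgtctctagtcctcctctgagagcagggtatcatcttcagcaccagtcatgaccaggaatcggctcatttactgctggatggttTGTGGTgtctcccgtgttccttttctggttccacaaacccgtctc
Cd244a, chr1:171558943-171559192, plus strand: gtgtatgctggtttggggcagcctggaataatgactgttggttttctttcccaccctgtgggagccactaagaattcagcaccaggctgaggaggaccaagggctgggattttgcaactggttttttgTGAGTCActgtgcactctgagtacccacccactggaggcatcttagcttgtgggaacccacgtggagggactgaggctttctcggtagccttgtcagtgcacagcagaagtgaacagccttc
The AP-1 letters ended 223 bases before the start in Cd84 and 116 bases before it in Cd244a, and they also occurred in the Slamf7 window. They were present in 6.87% of the 27025 promoter windows of this length. RUNX letters occurred in Cd84 and Cd48 (14.2% of all windows), ETS letters in Slamf8 and Slamf9 (20.0%), the interferon response letters in Slamf8 (3.04%) and NF-kB letters in no member (0.337%). A match is a description of the letters and not evidence that a factor binds there.

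The library labelled liver, called the liver-labelled library from here on, held 9591 barcodes, of which 3103 vehicle, 3194 low dose and 2138 high dose cells carried 1 hashtag, with median depths of 4497 to 4794 UMIs (unique molecular identifiers, counts of distinct captured transcripts). The spleen-labelled library held 4830 barcodes, with 822, 1301 and 865 such cells and median depths of 4694 to 7930 UMIs. Tissue transcripts went against these labels: the 6 hepatocyte markers together reached 0.0874 UMIs per 1000000 (CPM) in the liver-labelled library and 66.5 CPM in the spleen-labelled library, and Clec4f, a marker of liver Kupffer cells, had 0 of 68667953 UMIs in the former and 124.5 CPM in the latter. The libraries are therefore named only by their labels. The 2 libraries shared 15 barcode sequences, of which 6 had a hashtag call in both. Cells were clustered within each library and clusters were named from marker lists as neutrophil-like, monocyte-like, macrophage-like, T cell-like, B cell-like and NK cell-like, with no NK cell-like cluster in the spleen-labelled library.

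Transcripts of all 9 members were present in both libraries. Of the cells with a hashtag in the liver-labelled library, 52.0% had a Cd84 UMI, 28.3% a Slamf6 UMI, 26.6% a Cd48 UMI, 18.0% a Cd244a UMI and 13.6% a Ly9 UMI. Slamf1, Slamf7, Slamf8 and Slamf9 were found in 6.85%, 4.59%, 0.996% and 0.510% of these cells. In the other library the shares were 36.8% for Cd84, 27.9% for Cd48, 17.6% for Cd244a, and between 4.42% and 9.07% for the other 6 members. Slamf8 had 143 UMIs and Slamf9 56 UMIs in the whole liver-labelled library, against 353 and 453 in the smaller one.

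Cd84, a self-binding receptor of granulocytes, lymphocytes and platelets, was present in every leukocyte class examined. Neutrophil-like cells of the liver-labelled library had 246 CPM (237 to 255) in vehicle, 197 CPM (189 to 206) in low dose and 67.3 CPM (59.5 to 75.8) in high dose cells, and gave 57.7% of all Cd84 UMIs of that library. NK cell-like cells had 248, 245 and 163 CPM in the same order, T cell-like cells 162, 166 and 181 CPM, and B cell-like cells 127, 124 and 138 CPM. The interval of vehicle NK cell-like cells (174 to 343 CPM) held the neutrophil-like value, so the order of these 2 classes was not resolved. Neutrophil-like cells stood above T and B cell-like cells in vehicle. NK cell-like cells stood above B cell-like cells, and their interval overlapped that of T cell-like cells (148 to 177 CPM). Macrophage-like cells had 129.9, 160.0 and 106 CPM. Monocyte-like cells were lowest of the 6 classes in vehicle and low dose cells, with 65.0 and 38.8 CPM, and had 84.7 CPM at the high dose.

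The order of classes for Cd84 differed in the spleen-labelled library, where macrophage-like cells came first with 195, 162 and 149 CPM in vehicle, low and high dose cells. Neutrophil-like cells had 99.1 CPM (88.1 to 111), 118 CPM (107 to 129) and 42.3 CPM (34.3 to 51.5). T cell-like cells had 115, 111 and 85.4 CPM, and the vehicle interval of 75.0 to 168 CPM held the neutrophil-like value. Endothelial-like cells, which should lack Cd84, had 42.3 CPM over all groups and 4T1 tumor cell-like cells had 2 UMIs, 0.793 CPM. At a fixed depth of 500 UMIs per cell, 1.21% of endothelial-like cells (median 2352.5 UMIs before thinning) had a Cd84 UMI, and 0 of the 60 tumor cell-like cells did, which allows a share of up to 5.00%. The neutrophil-like shares at that depth were 10.8%, 10.4% and 3.23%, and 21.4%, 16.4% and 6.03% in the liver-labelled library. The vehicle and low dose shares stood above the endothelial-like share with intervals that did not overlap. The high dose share of the spleen-labelled library (1.06 to 7.37%) overlapped with the endothelial-like one (up to 3.49%), and in CPM both were at 42.3. Cd84 was thus not resolved there from the endothelial-like level. In CPM it stood above the tumor cell-like level of 0.793.

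**Figure D1:**
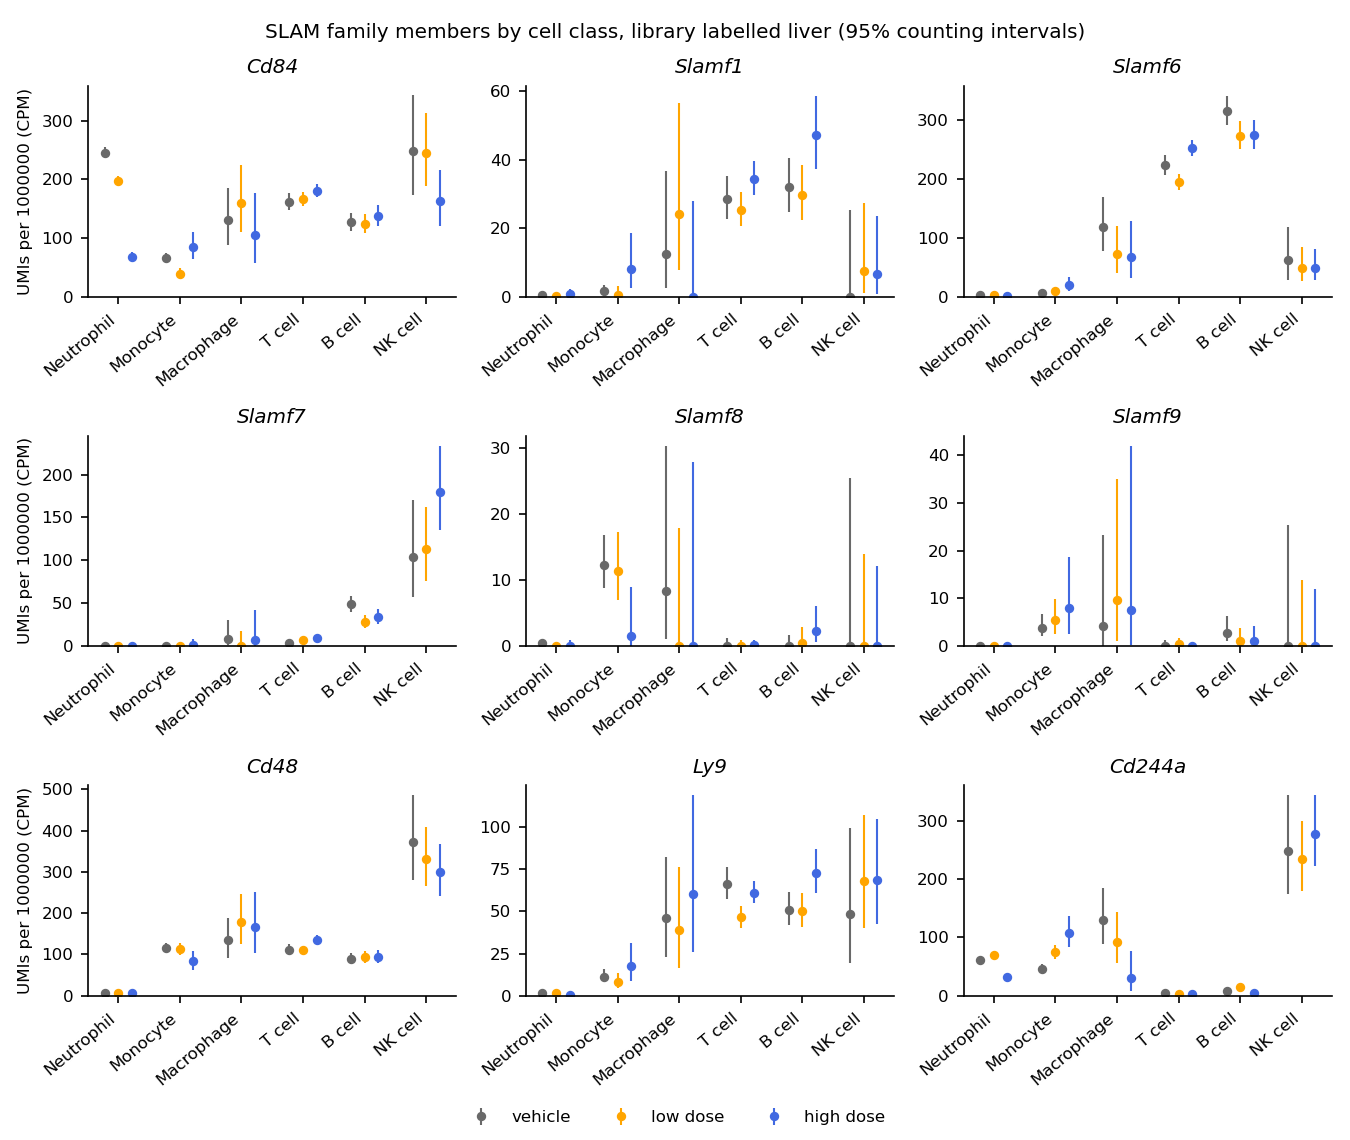
Level of each SLAM family member (vertical axis, UMIs per 1000000 UMIs of the class, separate scale per gene) in 6 cell classes of the liver-labelled library, for vehicle, low dose and high dose cells, with points for pooled cells and bars for 95% counting intervals. Cd84 in neutrophil-like cells is at 246, 197 and 67.3 CPM in the 3 groups, while T and B cell-like cells stay between 124 and 181 CPM.

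Cd244a (2B4), the receptor for Cd48, was led by NK cell-like cells, with 248, 234 and 277 CPM in vehicle, low and high dose cells of the liver-labelled library. Neutrophil-like cells had 60.5 CPM (56.2 to 65.1), 70.3 CPM (65.4 to 75.4) and 31.4 CPM (26.2 to 37.4). Monocyte-like cells had 46.0, 74.3 and 107 CPM and macrophage-like cells 129.9, 92.1 and 30.2 CPM. T cell-like cells lay between 2.39 and 4.35 CPM and B cell-like cells between 4.12 and 15.1 CPM, so that lymphocytes other than NK cells had little Cd244a in this library. Levels were lower in neutrophil-like cells of the spleen-labelled library, at 22.1, 33.5 and 17.7 CPM, and monocyte-like cells there had 73.5, 75.7 and 64.3 CPM. The 60 tumor cell-like cells had 0 UMIs, which allows up to 1.19 CPM.

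Cd48, the ligand of Cd244a, was lowest in neutrophil-like cells, which had 6.46, 6.32 and 5.98 CPM in the liver-labelled library and 8.15, 5.58 and 5.61 CPM in the other, with intervals that overlap between groups in each. Every other main class was at 63.4 CPM or above in all groups of both libraries. NK cell-like cells had 372, 332 and 300.2 CPM, T cell-like cells 112, 110.1 and 136 CPM, monocyte-like cells 116, 113 and 83.1 CPM, macrophage-like cells 134, 179 and 166 CPM and B cell-like cells 89.1, 92.9 and 94.3 CPM in the liver-labelled library. T cell-like cells of the spleen-labelled library had 189.8, 236 and 288 CPM, the highest Cd48 of the 5 main classes there in each group. In vehicle cells this rested on the cluster with mixed T and NK cell markers (229 CPM), and the other T cell-like cluster had 83.0 CPM (5 UMIs), below the 119, 111 and 99.5 CPM of monocyte-like, B cell-like and macrophage-like cells. Cd244a and Cd48 were thus found together in NK cell-like, monocyte-like and macrophage-like cells, while neutrophil-like cells had the receptor with little of the ligand. They were also found together in the spleen-labelled cluster with mixed T and NK cell markers. It had 72.2, 77.1 and 124 CPM of Cd244a in vehicle, low and high dose cells.

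Slamf6 (Ly108), Ly9 and Slamf1 (CD150), which bind themselves and act with SAP in lymphocytes, were high in B and T cell-like cells, and for Slamf6 these 2 classes led in every group of both libraries. Slamf6 was at 315, 273 and 274 CPM in B cell-like and 223, 195 and 252 CPM in T cell-like cells of the liver-labelled library, against 3.16 CPM or less in neutrophil-like cells of each group. Among T cell-like clusters it was at 172 CPM in the cluster led by Lef1, Tcf7 and Cd4, 243 CPM in that led by Cd8b1 and Cd8a, and 362 CPM in that led by Ikzf2, Foxp3 and Ctla4. The intervals of the 3 clusters did not overlap, and the last of them, with genes of regulatory T cells, was highest. Ly9 was at 66.2, 46.4 and 61.2 CPM in T cell-like and 51.0, 50.1 and 73.0 CPM in B cell-like cells. It was as high in NK cell-like cells, at 48.2, 67.9 and 68.5 CPM, and in vehicle cells of the spleen-labelled library macrophage-like cells had 48.5 CPM against 13.2 CPM (3 UMIs) in T cell-like cells. Slamf1 was at 28.4, 25.4 and 34.5 CPM in T cell-like and 31.9, 29.8 and 47.1 CPM in B cell-like cells. Both were under 2 CPM in neutrophil-like cells of every group and library.

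Slamf7 (CRACC), an activating self-binding receptor of NK and plasma cells, was at 103, 113 and 179 CPM in NK cell-like cells, 48.6, 28.2 and 33.6 CPM in B cell-like cells and 4.01, 6.94 and 9.56 CPM in T cell-like cells of the liver-labelled library. Of the 102 vehicle Slamf7 UMIs in B cell-like cells, 30 came from a cluster led by Vpreb3 and Vpreb1 (180 CPM). That cluster held 46 vehicle, 1 low dose and 0 high dose cells, and another held 147 low dose cells and 1 of each other group. The largest B cell-like cluster was at 37.7, 33.7 and 33.0 CPM. The 22 plasma cell-like cells had 128 CPM (101 to 160.0) of Slamf7. T cell-like cells of the spleen-labelled library had more, 48.6, 64.2 and 65.7 CPM, and 129 of their 141 Slamf7 UMIs came from 1 cluster led by Gzma, Ccl5, Cd3g, Cd8a and Prf1, which mixes cytotoxic T and NK cell markers.

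Slamf8 and Slamf9 were led by macrophage-like cells among the main classes of the spleen-labelled library. Slamf8 was at 79.9 CPM (61.1 to 103), 53.2 CPM (42.1 to 66.4) and 47.0 CPM (38.6 to 56.8) in macrophage-like cells of the spleen-labelled library, which held 69.7% of its UMIs. Slamf9 was at 57.6, 45.0 and 47.5 CPM in the same cells. The macrophage-like cells of the liver-labelled library, whose leading genes include C1qa, Vcam1, Spic and Hmox1, had 2 UMIs of Slamf8 and 4 of Slamf9 among 184 cells. Slamf8 was not confined to the main classes there. Cells of unnamed clusters in that library had 44, 15 and 5 Slamf8 UMIs (73.3, 40.4 and 14.3 CPM) in vehicle, low and high dose cells. The highest Slamf9 of any class was in 25 plasmacytoid dendritic cell-like cells of the spleen-labelled library, with 2, 15 and 33 UMIs in vehicle, low and high dose cells and 270.1 CPM (200.5 to 356) over all groups. Slamf9 had 0 UMIs in 2914 neutrophil-like cells of the liver-labelled library, which allows up to 0.111 CPM. T cell-like cells of the cluster led by Gzma, Cd3g and Prf1 had 21.8 CPM of Slamf9 over all groups, against 10.4 CPM in monocyte-like cells of that library.

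**Figure D2:**
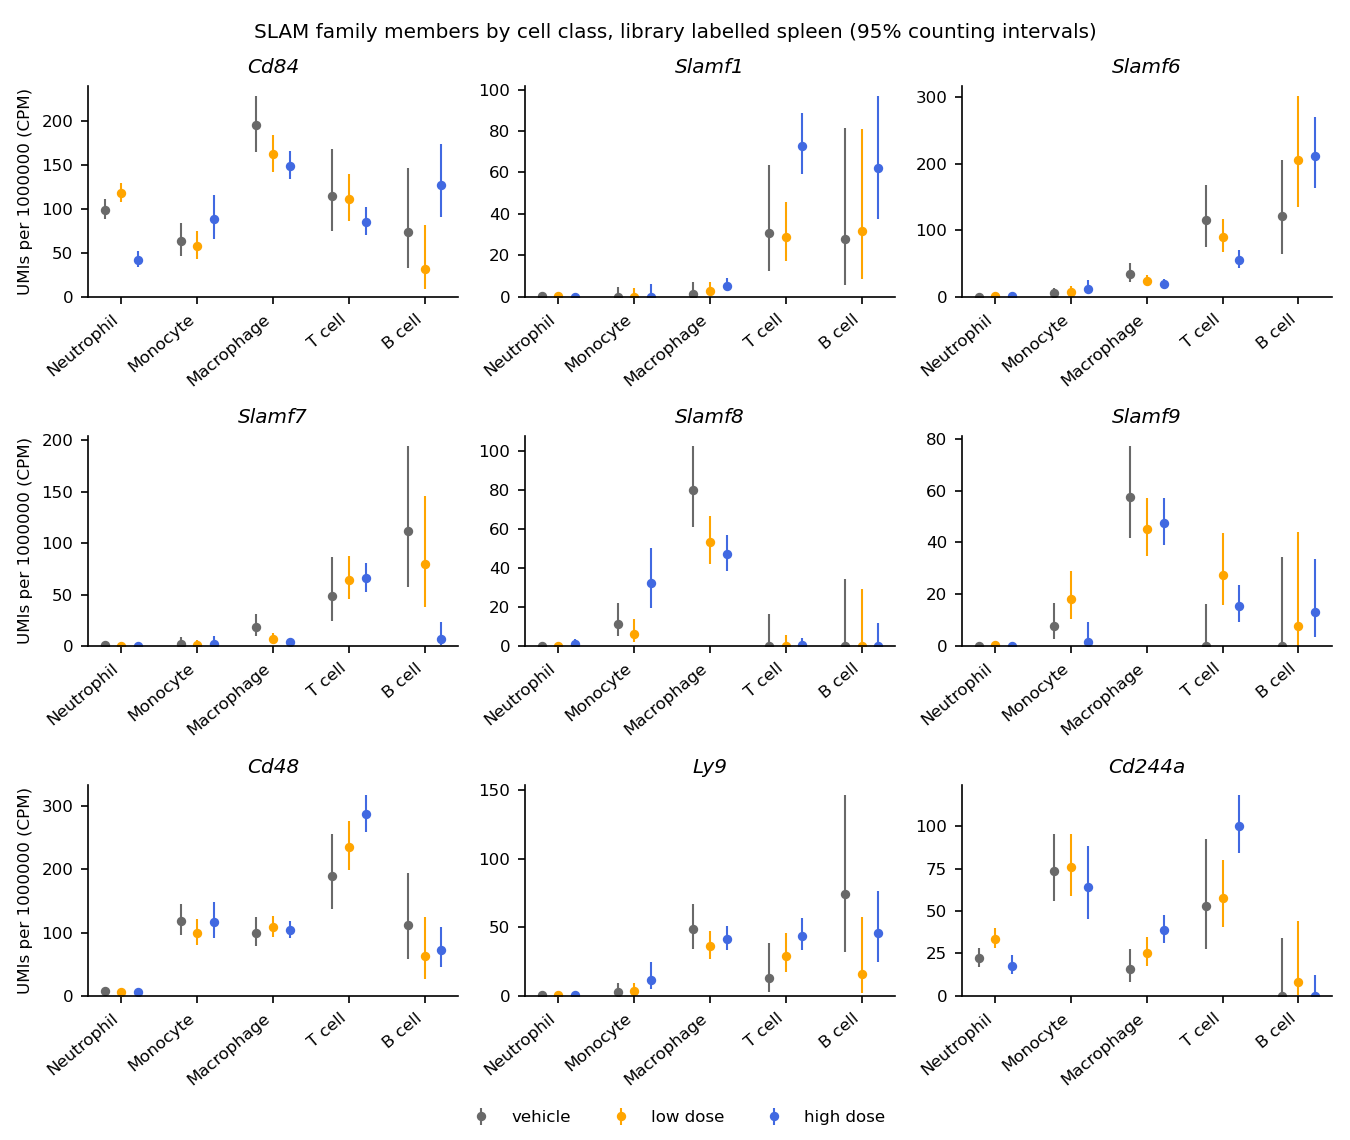
Level of each SLAM family member (UMIs per 1000000 UMIs of the class, separate scale per gene) in 5 cell classes of the spleen-labelled library, for vehicle, low dose and high dose cells, with 95% counting intervals. Slamf8 and Slamf9 are highest in macrophage-like cells, at 79.9 and 57.6 CPM in vehicle cells, and Cd84 in neutrophil-like cells is at 99.1, 118 and 42.3 CPM.

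The comparison of high dose with vehicle asks which members differed within a class after CBL0137. A ratio was called when it was past 2-fold, its interval left out 1 and both groups together had at least 20 UMIs. Over the main classes, 6 member ratios were called among 35 with that many UMIs in the liver-labelled library and 7 among 28 in the other. The share of all genes called is given below for each class. In neutrophil-like cells 1 of 5 members was called in the liver-labelled library, where 14.7% of all 9113 genes were called and the median gene was at −0.37 on the log2 scale. Cd84 was that member, at −1.87 on the log2 scale (interval −2.05 to −1.69). In the other library 1 of 3 members was called, against 5.52% of 7498 genes. This was again Cd84, at −1.23 (−1.57 to −0.89). Beside it, Cd244a was at −0.95 (−1.23 to −0.67) and −0.32 (−0.92 to 0.27), Slamf6 at −0.60 (−2.16 to 0.71) in the liver-labelled library, Cd48 at −0.11 (−0.84 to 0.57) and −0.54 (−1.64 to 0.49), and Ly9 had 18 vehicle and 2 high dose UMIs in the liver-labelled library. None of these 4 was past the rule in either library. Neutrophil-like cells of the high dose were 199 and 155 in number and deeper, with medians of 18606 and 14147 UMIs against 4366 and 4904 in vehicle cells. The 13 neutrophil markers together stood at 376001, 400765 and 399079 CPM in vehicle, low and high dose cells of the liver-labelled library and at 346631, 359103 and 335918 CPM in the other. After thinning every cell to 500 UMIs, the high dose shares of cells with Cd84 (6.03% and 3.23%) were the lowest of the 3 groups in each library. The CPM ratios and the thinned shares are both relative to the total UMIs of the cells, which were higher at the high dose. They therefore do not show by how much Cd84 UMIs per cell differed. Shares without thinning, given further on, were also lowest at the high dose, but by a smaller fold. The call in the spleen-labelled library was lost under a filter on cells (−0.79), with monocyte-like cells added (−0.83) and with granulocyte progenitor-like clusters inside the class (−0.91).

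Monocyte-like cells of the liver-labelled library had called ratios in 3 of 6 members, against 6.70% of 8879 genes. Slamf6 went from 20 UMIs (6.02 CPM) in vehicle to 12 UMIs (19.2 CPM) in high dose cells, 1.67 on the log2 scale (0.51 to 2.78). Cd244a went from 46.0 to 107 CPM, 1.22 (0.78 to 1.64). Slamf8 went from 41 UMIs (12.3 CPM) to 1 UMI, −2.95 (−8.29 to −0.39). The first of these calls was lost under 2 of 12 alternatives (down to 0.73), the second under 3 of 12 (down to 0.54) and that of Slamf8 under 0 of 12. These ratios rest on 26 high dose cells, in which the 13 neutrophil markers together were at 33667 CPM against 11580 CPM in vehicle cells and the 8 T cell markers at 236 CPM against 77.6 CPM. Their part in the result was not tested. In the spleen-labelled library 1 of 4 members was called, against 5.06% of 6147 genes: Slamf8, with 9 UMIs (11.6 CPM) in vehicle, 6 (6.39 CPM) in low dose and 19 (32.1 CPM) in high dose cells, 1.47 (0.26 to 2.80). This call was lost under 4 of 12 alternatives (MULTIseqDemux, Scrublet, the cell filter and resolution 0.4), with values down to 0.066. Its main value and that of the liver-labelled library had opposite signs, and the difference was not tested.

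Among macrophage-like cells, Cd244a was called in both libraries and in opposite directions. It had 31, 19 and 4 UMIs (129.9, 92.1 and 30.2 CPM) in the liver-labelled library, −2.11 (−4.07 to −0.61), where 1 of 4 members and 7.88% of 2728 genes were called. It had 12, 37 and 88 UMIs (15.7, 25.2 and 38.7 CPM) in the spleen-labelled library, 1.30 (0.42 to 2.31), where 2 of 8 members and 5.43% of 8981 genes were called. The other was Slamf7, with 14, 10 and 9 UMIs (18.3, 6.82 and 3.96 CPM), −2.21 (−3.60 to −0.90). The calls of the spleen-labelled library were lost under 1 of 11 alternatives each, Cd244a at 0.75 with MULTIseqDemux and Slamf7 at 0.24 with classes from markers in each cell. The macrophage-like cells of the liver-labelled library were shallow, with a median of 866 UMIs at the high dose, and their neutrophil markers stood at 4871, 6945 and 1870 CPM and their monocyte markers at 809, 72.7 and 98.0 CPM. In the spleen-labelled library the NK cell markers, whose cells carry Cd244a, stood at 202, 113 and 477 CPM in macrophage-like cells, and a cluster led by Marco and Clec4f made up 10.5%, 22.7% and 32.0% of the class. The part of these cells in the ratios was not tested.

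**Figure D3:**
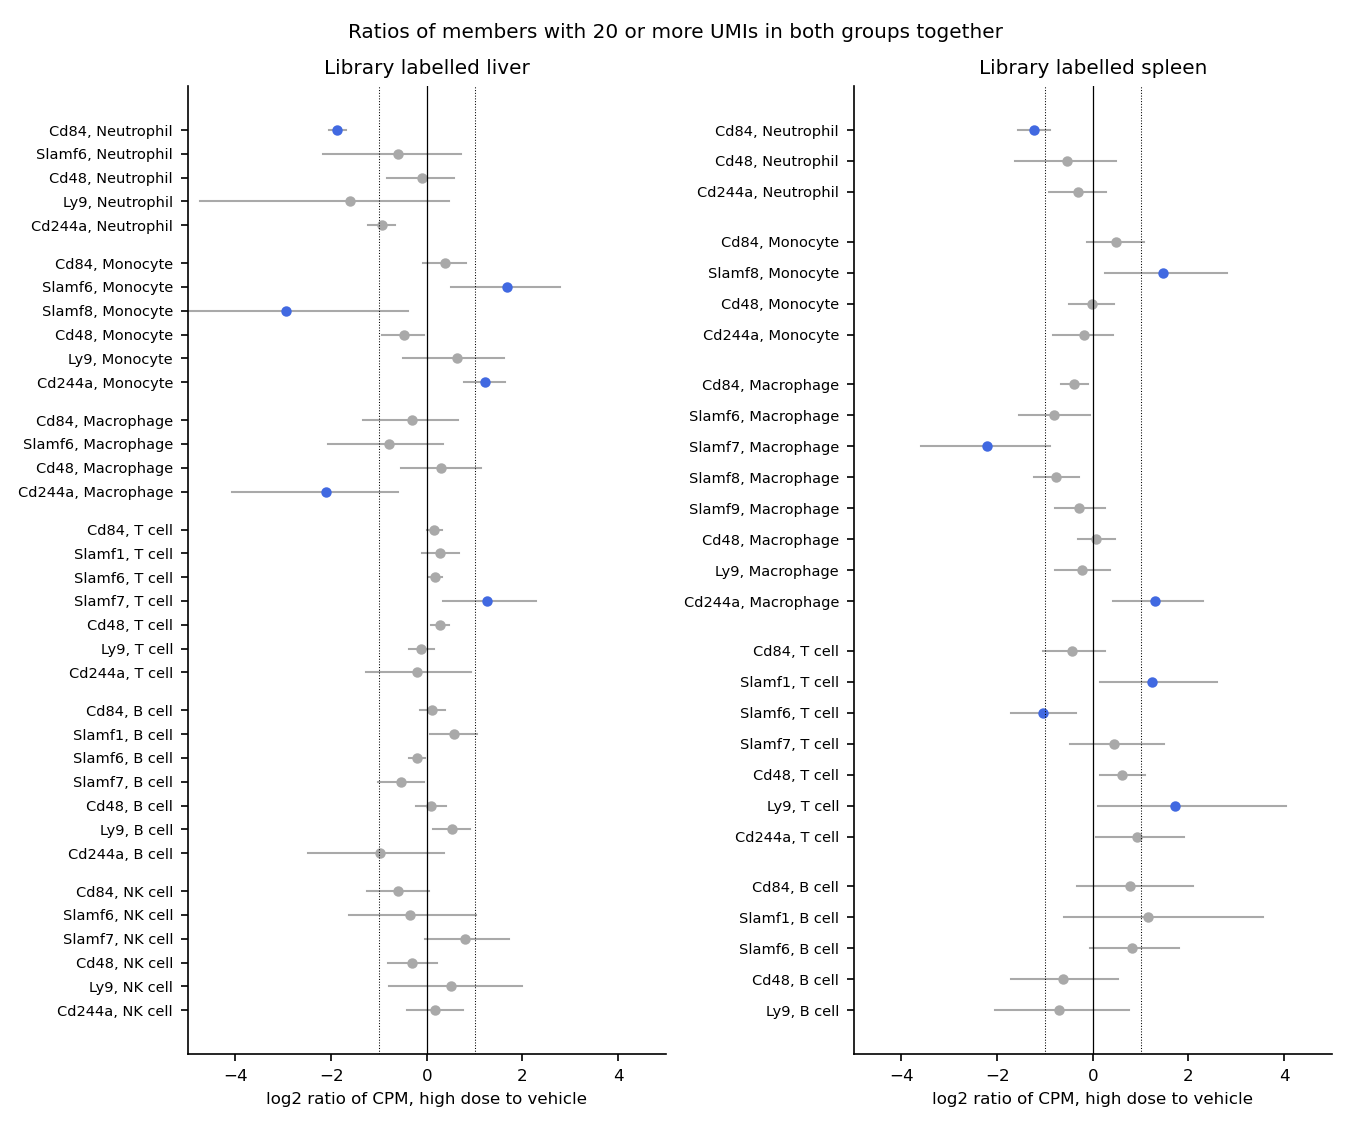
Ratio of high dose to vehicle CPM on the log2 scale for every member with at least 20 UMIs in both groups together, by class, in the liver-labelled library (left) and the spleen-labelled library (right), with 95% counting intervals cut at the axis limits and Slamf9 in T cell-like cells of the spleen-labelled library not drawn, as it had 0 vehicle UMIs. Blue points are called, grey points are not, and dotted lines mark 2-fold. Cd84 in neutrophil-like cells is the only member called lower in the same class of both libraries, at −1.87 and −1.23.

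T cell-like cells of the liver-labelled library had 1 called member of 7, against 1.72% of 9924 genes: Slamf7, with 12 UMIs (4.01 CPM) in vehicle and 53 (9.56 CPM) in high dose cells, 1.25 (0.33 to 2.29). Of these UMIs 11 and 37 came from the cluster led by Ikzf2, Foxp3 and Ctla4. Its own ratio was 0.14 (−0.86 to 1.26), and it made up 14.0% of the class in vehicle and 21.3% in high dose cells. The rest of these UMIs came from the other T cell-like clusters, and nearly all of that rest was from high dose cells. The part of the makeup of the class in the call was not tested. The call was lost under 4 of 12 alternatives, down to 0.72. The other 6 ratios lay between −0.20 and 0.28. In the spleen-labelled library 3 of 8 were called, against 7.29% of 7225 genes. Slamf1 had 7, 18 and 100 UMIs (30.9, 28.9 and 73.0 CPM), 1.24 (0.14 to 2.59), and Ly9 had 3, 18 and 60 UMIs (13.2, 28.9 and 43.8 CPM), 1.73 (0.11 to 4.04). Slamf6 had 26, 56 and 76 UMIs (115, 89.9 and 55.5 CPM), −1.05 (−1.71 to −0.35), a call lost under 4 of 12 alternatives (up to −0.44). Those of Slamf1 and Ly9 were lost under 3 of 12 and 2 of 11. These T cell-like cells came from 2 clusters, and the cluster led by Gzma, Cd3g and Prf1 made up 54.5%, 56.3% and 69.2% of the class and had 9 B cell markers at 3905 CPM in high dose cells against 6.01 CPM in vehicle cells. Without it the Slamf1 ratio was 1.08 (−0.38 to 3.02), no longer called, the Slamf6 ratio was −1.35 (−2.11 to −0.54), and Ly9, with 0 vehicle and 12 high dose UMIs, had too few to be called. The 8 NK cell markers reached 7097 CPM in that cluster at the high dose against 5522 CPM in vehicle cells.

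No member was called in B cell-like cells of the liver-labelled library (7 with enough UMIs, 2.98% of 8931 genes called), of the spleen-labelled library (5 with enough UMIs, 6.68% of 2679 genes), or in NK cell-like cells (6 members, 4.34% of 3638 genes). In NK cell-like cells the ratios were 0.16 (−0.42 to 0.77) for Cd244a, 0.80 (−0.05 to 1.73) for Slamf7, −0.60 (−1.25 to 0.06) for Cd84 and −0.31 (−0.81 to 0.20) for Cd48, from 33 vehicle and 60 high dose cells. The intervals for Cd244a and Cd48 leave out a 2-fold change in either direction, and those for Slamf7 and Cd84 do not. In B cell-like cells of the liver-labelled library Slamf1 was at 0.56 (0.08 to 1.05), Ly9 at 0.52 (0.13 to 0.91) and Slamf6 at −0.20 (−0.38 to −0.03). The makeup of this class differed between groups, and a cluster led by Vpreb3 held 46 vehicle and 0 high dose cells. Within its largest cluster Slamf1 was at 0.38 (−0.13 to 0.89), Ly9 at 0.42 (0.01 to 0.84) and Slamf6 at −0.22 (−0.41 to −0.03). Slamf7 in B cell-like cells of the spleen-labelled library was under the minimum of 20 UMIs, with 12 in 31 vehicle and 2 in 66 high dose cells (111 and 6.53 CPM).

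Granulocyte progenitor-like cells, named for the stage before neutrophils, had more called members in the liver-labelled library than any of the main classes. The high dose ratio was called in 5 of 7 members, each higher, where 15.4% of 10183 genes were called and the median gene was at 0.42. Cd48 was at 37.3, 56.0 and 136.9 CPM in vehicle, low and high dose cells, 1.88 (1.64 to 2.12). Slamf6 was at 3.21, 5.13 and 19.6 CPM, 2.61 (1.83 to 3.48), and Slamf1 at 3.61, 5.13 and 19.4 CPM, 2.42 (1.68 to 3.24). Slamf7 had 10, 5 and 29 UMIs, 1.69 (0.61 to 2.89), and Ly9 had 28, 24 and 52 UMIs, 1.04 (0.35 to 1.76). Cd84, at 16.4, 14.3 and 21.8 CPM, and Cd244a, at 4.81, 5.80 and 7.35 CPM, were not called. In the spleen-labelled library, with 67 vehicle and 15 high dose cells of this class, 0 of 4 members was called, against 4.63% of 7428 genes, and Cd48 was at −0.23 (−0.74 to 0.24) and Ly9 at −0.07 (−1.83 to 1.37). The makeup of the liver-labelled class moved with these values: of its 149, 140 and 133 cells, a cluster led by Car2, Myb, Cdk6 and Cd34, genes of early progenitors, held 40, 42 and 91. Within that cluster 2 of 7 members were called, against 5.91% of 9359 genes: Slamf1 from 12.2 to 31.5 CPM, 1.37 (0.59 to 2.24), and Slamf6 from 12.2 to 30.8 CPM, 1.34 (0.55 to 2.21). Cd48 was at 0.76 (0.52 to 1.02), Cd84 at 0.49 (−0.14 to 1.17), Slamf7 at 0.48 (−0.60 to 1.68), Ly9 at 0.22 (−0.53 to 1.03) and Cd244a at −0.64 (−1.51 to 0.25). In the other cluster, number 11, only Cd84 had enough UMIs and it was not called (−0.70, −1.60 to 0.13, with 2.58% of 7583 genes called). Over the class the 8 T cell markers stood at 104, 174 and 504 CPM, the 6 erythroid markers at 431, 1504 and 3846 CPM and the 13 neutrophil markers at 251820, 227174 and 116000 CPM. Within the cluster of early progenitors the T cell markers were at 272, 482 and 794 CPM. Their part in the ratios was not tested.

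The low dose, which shares its vehicle cells with the comparison above, gave 0 called members in the main classes of the liver-labelled and 1 in those of the spleen-labelled library. The background in the former was 2.69% of 9778 genes in neutrophil-like, 1.26% of 9622 in T cell-like, 2.88% of 9027 in B cell-like, 3.43% of 9319 in monocyte-like, 6.95% of 3408 in macrophage-like and 2.78% of 3350 in NK cell-like cells. The 1 call was Slamf7 in macrophage-like cells, 14 against 10 UMIs, −1.43 (−2.76 to −0.15), where 4.33% of 8148 genes were called, and it was lost under 3 of 11 alternatives. In its other classes 0 of 3 members was called in neutrophil-like cells (4.09% of 7896 genes), 0 of 4 in monocyte-like cells (3.92% of 6688), 0 of 7 in T cell-like cells (4.94% of 5263) and 0 of 3 in B cell-like cells (7.91% of 1568). Outside the main classes, granulocyte progenitor-like cells of the spleen-labelled library had 2 of 4 members called lower at the low dose, against 3.19% of 8935 genes. Cd84 had 42 vehicle and 18 low dose UMIs, −1.64 (−2.53 to −0.82), and Cd244a had 23 and 14 UMIs, −1.14 (−2.21 to −0.12). In the liver-labelled library 0 of 6 members was called in these cells, against 2.37% of 9779 genes. Cd84 in neutrophil-like cells was at −0.32 (−0.40 to −0.23) in the liver-labelled library and at 0.25 (0.03 to 0.47) in the spleen-labelled library, on opposite sides of 0. At the vehicle mix of clusters these ratios were −0.20 and 0.077, without intervals. In the spleen-labelled library cluster 12 held 119 of the 623 low dose cells and 2 vehicle cells, and its part was not tested. Cd244a in neutrophil-like cells was at 0.22 (0.07 to 0.36) and 0.60 (0.16 to 1.05), above 0 in both.

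The neutrophil-like class was made up of clusters that differed widely in Cd84 and Cd244a and in their share of each group. The members, their adaptors and Il1b had been left out of the genes used for clustering. In the liver-labelled library the order by Cd84 was cluster 5 (led by Saa3, Il1b, Ccrl2, Csf1 and Fos) with 851 CPM (806 to 897), cluster 2 (Il1b, Csf3r, Fos) with 523 CPM (498 to 548), cluster 7 (Saa3, Wfdc17, Cxcl2) with 431 CPM (405 to 459), cluster 9 (Prok2, Retnlg, Ly6g, Mmp8) with 115 CPM (104 to 126), cluster 3 (Stfa3, Stfa2) with 70.4 CPM (65.5 to 75.5) and cluster 13 (Ltf, Camp, Ngp, granule genes of immature neutrophils) with 20.9 CPM (17.1 to 25.3). No neighbouring intervals in this order overlapped. Cd244a followed the same order, with 268, 168, 97.4, 39.4, 22.4 and 5.63 CPM. The 3 clusters high in Cd84 had median depths of 2744.5 to 4920 UMIs and the other 3 had 11822 to 23028 UMIs. CPM is relative to total UMIs, so the spread in Cd84 UMIs per cell was smaller. In vehicle cells, 372 cells of cluster 5 had 948 Cd84 UMIs, 235 of cluster 3 had 299 and 98 of cluster 13 had 49.

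The spleen-labelled library had a like order. Cluster 3 (Ccrl2, Il1b, Hcar2, Csf1) had 458 CPM of Cd84 and 143 CPM of Cd244a, and cluster 0 (Wfdc17, G0s2, Il1b, Retnlg) had 269.7 CPM and 58.4 CPM. Cluster 12 (Bcl2l15, Orm1, Il1r2), cluster 8 (Stfa3, Stfa2) and cluster 1 (Camp, Ngp, Ltf) followed with 81.1, 59.3 and 21.4 CPM of Cd84 and 32.8, 25.4 and 4.29 CPM of Cd244a. The intervals of clusters 12 and 8 overlapped for Cd84 (59.6 to 108 and 48.9 to 71.4 CPM). In CPM, clusters led by inflammatory genes thus had the most of both receptors in each library, and clusters led by granule genes the least. Over 5 clusters here and 6 in the other library these are descriptions of cells of the same pools and carry no test.

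The clusters high in Cd84 held smaller shares of the high dose cells than of the vehicle cells. Of the neutrophil-like cells of the liver-labelled library, 26.1% in vehicle, 13.3% in low dose and 0% in high dose lay in cluster 5 (372, 172 and 0 cells, which allows up to 1.51% at the high dose), and cluster 2 held 24.6%, 35.7% and 1.51% (351, 461 and 3 cells). Cluster 7 held 19.9%, 10.4% and 4.52%. Cluster 3, led by the stefins Stfa3 and Stfa2, held 150 of the 199 high dose cells, 75.4%. In the spleen-labelled library cluster 3 held 100, 127 and 3 cells (27.8%, 20.4% and 1.94%). Cluster 0 held 106, 190 and 18 cells (29.4%, 30.5% and 11.6%), while the stefin-led cluster 8 held 50, 53 and 64. In the liver-labelled library different clusters therefore made up most of the class in vehicle and high dose cells. In the spleen-labelled library cluster 1 (Camp, Ngp, Ltf) was large in both, with 28.3% of vehicle and 43.2% of high dose cells.

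Within single clusters no high dose ratio of Cd84 was called, although several rest on few cells. In the liver-labelled library this was 0 of 5 clusters with enough UMIs, where 2.65% (cluster 2), 3.42% (cluster 3), 3.64% (cluster 7), 4.20% (cluster 9) and 4.12% (cluster 13) of all genes were called. It was 0 of 4 clusters in the spleen-labelled library, with 7.11% (cluster 0), 3.35% (cluster 1), 5.98% (cluster 3) and 5.72% (cluster 8) of genes called. Cluster 2 of the first and cluster 3 of the second library had 3 high dose cells each, and their ratios of −0.76 (−3.04 to 0.79) and −1.28 (−4.34 to 0.61) do not leave out a 2-fold lower level. In the liver-labelled library the stefin-led cluster 3 had 70.7 CPM in vehicle, 77.9 CPM in low dose and 61.2 CPM in high dose cells, −0.21 (−0.48 to 0.06). Cluster 7 had 469, 365 and 299.6 CPM, −0.65 (−1.30 to −0.06), with 9 high dose cells, and clusters 9 and 13 were at 0.33 (−0.20 to 0.84) and −0.62 (−2.30 to 0.70). In the spleen-labelled library the stefin-led cluster 8 had 41.3, 68.0 and 67.0 CPM, 0.70 (−0.03 to 1.46), cluster 0 had 279.8, 285 and 145 CPM, −0.95 (−1.73 to −0.25), and cluster 1 was at −0.54 (−1.41 to 0.29). With the vehicle mix of clusters held fixed, the ratio of the class was −0.54 in the liver-labelled library, over the 5 clusters with high dose cells, and −0.74 in the spleen-labelled library, against −1.44 and −1.23 over the same clusters without fixing. Cluster 5, which has no high dose cells, is left out of both values of the liver-labelled library. Neither fixed value has an interval. The drop in the liver-labelled library rests mostly on clusters 2 and 7, with 3 and 9 high dose cells. That of the spleen-labelled library rests mostly on clusters 3 and 0, with 3 and 18 high dose cells. Cd244a within the stefin-led clusters went from 20.1 to 30.5 CPM, 0.60 (0.16 to 1.04), and, called in the other library, 17.2 against 39.9 CPM, 1.22 (0.15 to 2.41). Both were above 0 while the class as a whole was at −0.95 and −0.32.

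**Figure D4:**
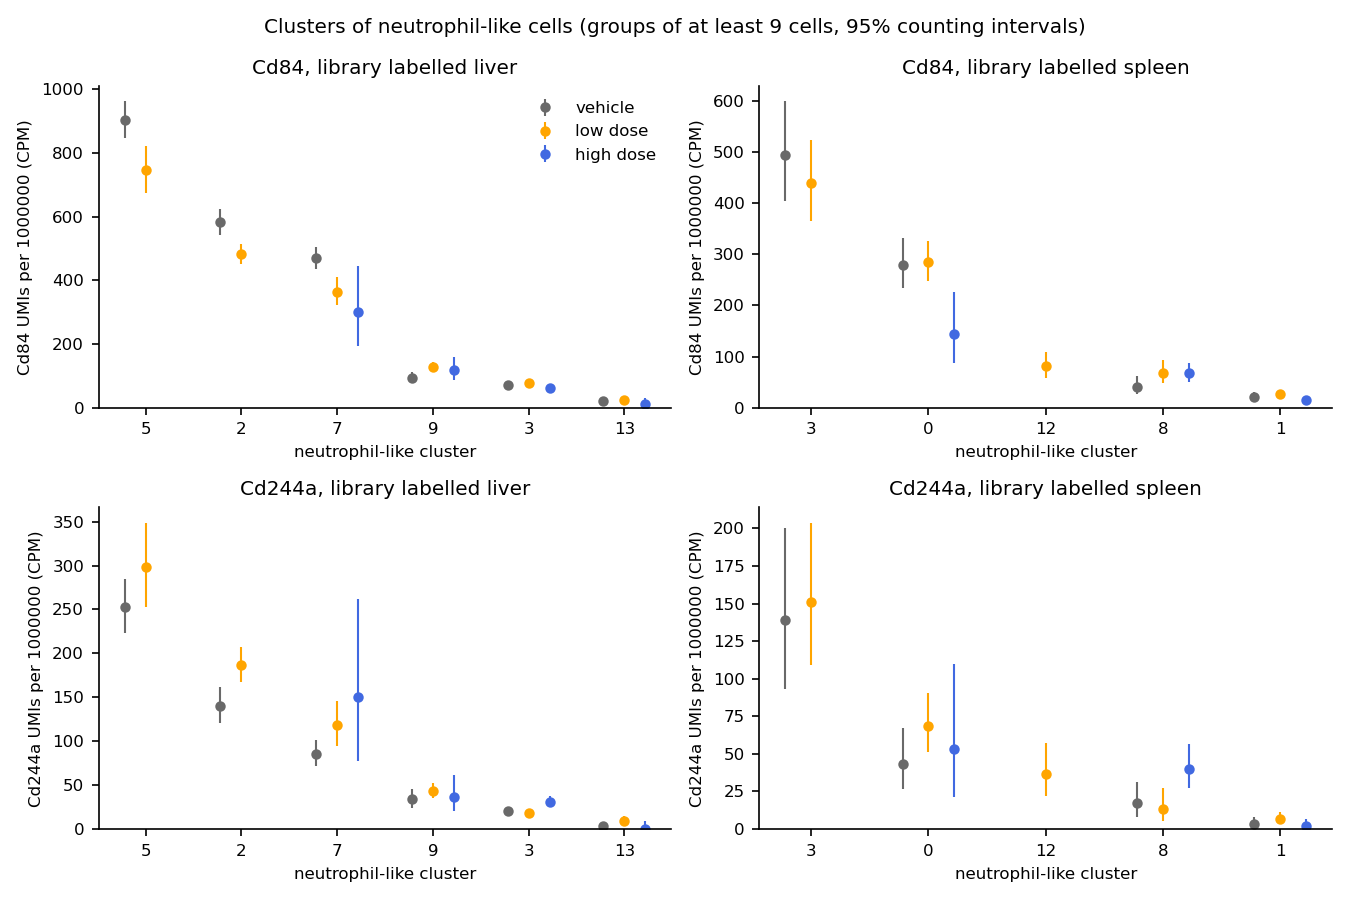
Cd84 (top) and Cd244a (bottom) in UMIs per 1000000 by neutrophil-like cluster, ordered from high to low Cd84, in the liver-labelled (left) and spleen-labelled (right) library, for groups of at least 9 cells with 95% counting intervals. Clusters range from 851 to 20.9 CPM of Cd84 on the left and from 458 to 21.4 CPM on the right over all groups, the groups within cluster 3 on the left lie between 61.2 and 77.9 CPM, and the high dose has no point in clusters 5 and 2 (left) and 3 (right).

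Il1b, an inflammatory cytokine gene led by the same clusters, was used to split neutrophil-like cells at a fixed depth of 500 UMIs per cell. Among vehicle cells of the liver-labelled library, 30.4% of 585 cells with an Il1b UMI had a Cd84 UMI (26.7 to 34.3%) against 15.1% of 840 cells without (12.8 to 17.7%). Among low dose cells the shares were 23.8% of 642 and 8.95% of 648, and among high dose cells 23.1% of 13 (5.04 to 53.8%) and 4.84% of 186 (2.24 to 8.99%). Only 13 high dose cells had an Il1b UMI at this depth, and in the cells without Il1b the high dose share of Cd84 was below the vehicle share with intervals that did not overlap.

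The spleen-labelled library gave 17.2% of 157 against 5.91% of 203 vehicle cells and 16.6% of 349 against 2.55% of 274 low dose cells. At the high dose 4.76% of 21 and 2.99% of 134 cells had Cd84, with wide intervals. Cd244a was split in the same way, with 8.89% against 3.69% of vehicle and 11.7% against 3.09% of low dose cells in the liver-labelled library, and 4.87% against 1.09% of low dose cells in the spleen-labelled library. In vehicle and low dose cells of both libraries the share with Cd84 was thus higher among neutrophil-like cells with Il1b, with intervals that did not overlap. Monocyte-like cells with Il1b were too few to show whether this held there. None of the 7, 19 and 3 such cells in vehicle, low and high dose of the liver-labelled library had a Cd84 UMI. Their exact intervals reached up to 41.0%, 17.6% and 70.8%. None of the 13, 28 and 11 in the other library had one, with intervals up to 24.7%, 12.3% and 28.5%. Among monocyte-like cells without Il1b the share was at most 6.62%.

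**Figure D5:**
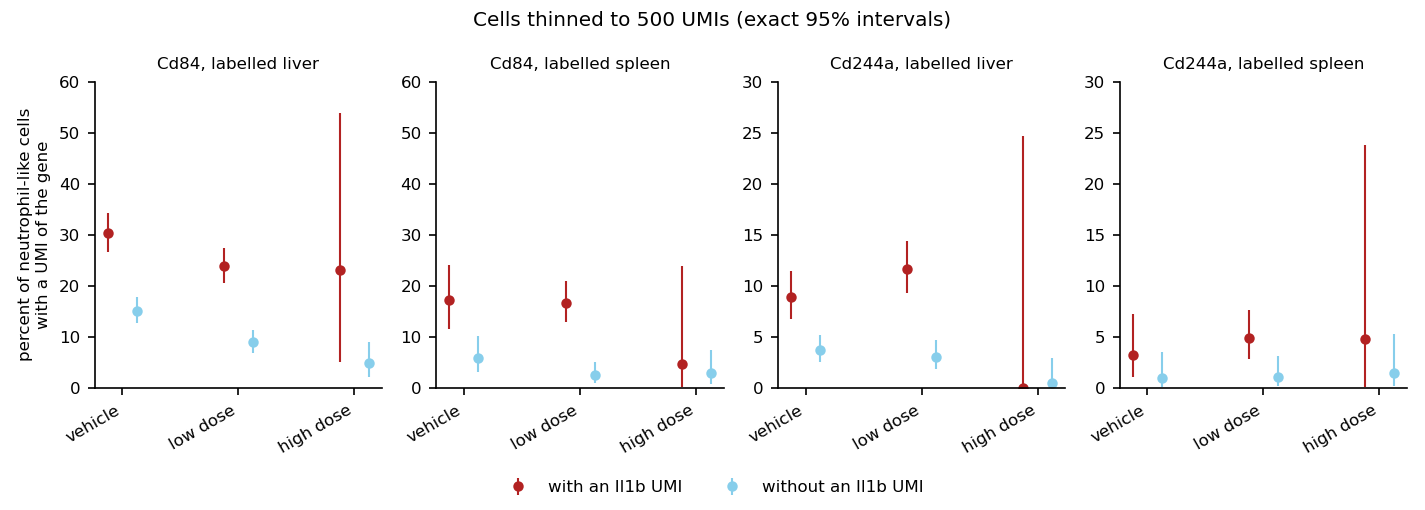
Percent of neutrophil-like cells with a Cd84 UMI (left pair of panels) or a Cd244a UMI (right pair of panels) among cells with and without an Il1b UMI, after thinning each cell to 500 UMIs, by group and library, with exact 95% intervals. Cd84 is at 30.4% with and 15.1% without Il1b in vehicle cells of the liver-labelled library, and the high dose groups with Il1b hold 13 and 21 cells.

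The rule also asks how the members differed between libraries, and library and tissue cannot be told apart. Among vehicle neutrophil-like cells Cd84 was lower in the spleen-labelled library by 1.31 on the log2 scale (−1.49 to −1.14), Cd244a was at −1.46 (−1.85 to −1.09) and Slamf6 had 0 UMIs against 27, where 16.8% of 9252 genes were called. At the high dose the Cd84 levels of the 2 libraries were nearer, at 67.3 and 42.3 CPM. Among vehicle macrophage-like cells 4 members were called, against 17.8% of 5961 genes: Slamf9 at 3.78 (1.23 to 9.12) and Slamf8 at 3.25 (1.34 to 6.33) were higher in the spleen-labelled library, while Cd244a at −3.05 (−4.14 to −2.05) and Slamf6 at −1.79 (−2.61 to −0.96) were lower. Slamf8 and Slamf9 had 2 and 1 UMIs in the 63 vehicle cells of the liver-labelled library. Among vehicle T cell-like cells Cd244a and Slamf7, at 3.61 and 3.60, were higher and Ly9, at −2.32, was lower, where 12.4% of 8389 genes were called. All 12 Cd244a and 11 Slamf7 UMIs of the spleen-labelled vehicle cells came from the cluster led by Gzma, Cd3g and Prf1, in which the 8 NK cell markers stood at 5522 CPM, and the other T cell-like cluster had 0 of each.

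Vehicle B cell-like cells differed between libraries in Slamf7, at 1.20 (0.20 to 2.06), and Slamf6, at −1.39 (−2.30 to −0.60), where 3.81% of 7824 genes were called. Only 31 vehicle B cell-like cells were in the spleen-labelled library, and these had 12 UMIs of Slamf7 and 13 of Slamf6. Vehicle monocyte-like cells differed in 1 member, Ly9, with 38 UMIs (11.4 CPM) in the liver-labelled library and 2 UMIs (2.58 CPM) in the other, −2.15 (−5.25 to −0.20), where 11.6% of 8894 genes were called. Cd48, Cd84 and Cd244a of monocyte-like cells were not called between libraries.

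The signaling partners of the family were taken as a list of 10: Sh2d1a, Sh2d1b1, Sh2d1b2, Fyn, Ptpn6, Ptpn11, Inpp5d, Nck1, Vav1 and Cd2, the last a related adhesion receptor that also binds Cd48. At the high dose 2 were called against vehicle in the 6 main classes of the liver-labelled library, of 46 ratios with enough UMIs, both in monocyte-like cells, where 6.70% of all genes were called: Sh2d1b1, which encodes EAT-2, went from 18.6 to 38.3 CPM (1.04) and Cd2, a T and NK cell gene, from 11.1 to 32.0 CPM (1.52). The raised T cell and neutrophil markers of these 26 high dose cells, given above, stood beside these values too, and their part was not tested. None was called among 33 in the main classes of the spleen-labelled library or, at the low dose, of either library. The shares of all genes called there are given above by class. Outside the main classes, Sh2d1a was called in granulocyte progenitor-like cells of the liver-labelled library, with 16, 51 and 116 UMIs. Its ratios were 1.83 (0.99 to 2.74) at the low and 3.01 (2.25 to 3.86) at the high dose. Of all genes 2.37% and 15.4% were called. The T cell markers of the class rose too, and their part was not tested. In the spleen-labelled library this class had 0 Sh2d1a UMIs. The median ratio of the list over the genes with enough UMIs in neutrophil-like cells was −0.31 in the liver-labelled library, where the median of all genes was −0.37, and 0.13 against 0.02 in the other.

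Transcripts of SAP were few in neutrophil-like cells. Sh2d1a was at 83.9 to 97.8 CPM in T cell-like and 238 to 300.2 CPM in NK cell-like cells of the liver-labelled library, and at 0.181 to 0.922 CPM in neutrophil-like cells, which had 15 UMIs in all. Sh2d1b1 was at 0.335 to 1.25 CPM in neutrophil-like cells, 18.6 to 38.3 CPM in monocyte-like cells and 58.7 to 67.9 CPM in macrophage-like cells. Sh2d1b2 had 1 UMI in each library. The phosphatases were present in neutrophil-like cells: Ptpn6 (SHP-1) was at 251, 268 and 199 CPM, Inpp5d (SHIP-1) at 34.1, 35.5 and 33.1 CPM and Ptpn11 (SHP-2) at 20.4, 21.1 and 17.2 CPM in vehicle, low and high dose cells of the liver-labelled library. Fyn was at 2.85, 1.90 and 1.74 CPM in the same cells and at 145, 137 and 160.1 CPM in T cell-like cells. Neutrophil-like cells thus had transcripts of the phosphatases and few of the adaptors or Fyn.

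The genes whose pattern was most like that of Cd84 over 42 sums of cells (15 combinations of class and library, each by group, among 8242 genes) were Wipf1 (r = 0.79), Btg1 (0.78), Cd53 (0.77), Ptprc (0.77) and Plcl2 (0.77), with Pearson's r on log2(CPM + 10). Wipf1 encodes an actin regulator, Cd53 a leukocyte tetraspanin and Ptprc the leukocyte common antigen CD45. The other members were less like it, with Ly9 at 0.51, Slamf6 at 0.50, Cd244a at 0.45, Slamf7 at 0.36, Cd48 at 0.32, Slamf9 at 0.22, Slamf1 at 0.19 and Slamf8 at 0.089. The sums share libraries, vehicle pools and the large share of UMIs that a few granule and S100 genes take in neutrophils, so these values are descriptions.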

How the data were processed

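Droplet single-cell RNA libraries with TotalSeq-A hashtags were analysed from 2 matrices of UMI counts (genes and hashtags by barcode), which the authors made with Cell Ranger against mm10 and deposited without normalization. The version was 5.0.0 in the matrix header, 6.0.0 in the submitters' processing notes and 8.0 in the study's methods. The study then used SCTransform and Seurat.

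Here hashtags were called with HTODemux (quantile 0.99) in Seurat 5.3.0 (R 4.3.3), and barcodes with more than 1 hashtag or none were left out: 616 and 540 in the liver-labelled library, 215 and 1627 in the spleen-labelled one. Hashtags cannot show doublets within 1 group. Cells were clustered per library with sctransform 0.4.2, 30 principal components and resolution 0.8, with the 9 members, 10 adaptor genes and Il1b left out of the variable features. A cluster was named from at least 3 raised markers (1 on the log2 scale, offset 10 CPM). Leading genes are the top 10 by fold among those in at least 20% of its cells, a limit chosen after seeing the data. Clusters left unnamed held 143, 112 and 183 cells of vehicle, low and high dose in the first library and 143, 147 and 135 in the second.

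UMIs were summed per class and group and divided by all gene UMIs of the class (CPM). Summing lets deep cells weigh more than shallow ones. With 1 pool of mice per group and library, no test was made and no p-value was computed. Intervals are exact Poisson (CPM), Clopper-Pearson (shares) and conditional binomial (ratios) at 95%, with Python 3.11.15 and scipy 1.17.1. They cover counting error only. Where a group had 0 UMIs, the limit given is that of 3 counts, except for shares split by Il1b, where it is the exact interval. Calls were made over all genes with at least 20 UMIs in both groups together. The ratio and interval steps, but not the calling rule, were tested on simulated counts that varied by counting error only. Named genes were the 9 members, the 10 partners and, by Pearson's r over class sums of at least 20 cells, the 5 genes most like Cd84 among those with a mean of at least 10 CPM. Shares of cells with a UMI were taken after thinning each cell to 500 UMIs. Alternatives were other hashtag calls (MULTIseqDemux, dominant hashtag), doublets removed with Scrublet, a filter on cells, other resolutions, classes from markers in each cell, a mean over cells, libraries scaled with TMM factors (edgeR 4.0.16) and clusters or barcodes left out. Members and lists were chosen with earlier results of these data known.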

Additional observations from a re-analysis of the deposited data

Results flagged for a closer look

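A pair of high dose to vehicle ratios had opposite signs in the libraries, and neither difference was tested. Cd244a in macrophage-like cells was at −2.11 on the log2 scale in the liver-labelled library (31 vehicle and 4 high dose UMIs) and at 1.30 in the spleen-labelled library (12 and 88 UMIs). Slamf8 in monocyte-like cells was at −2.95 (41 and 1 UMIs) and at 1.47 (9 and 19 UMIs), and the second of these values was no longer called under 4 of 12 alternatives, down to 0.066.

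Members were also present in barcodes without a hashtag, which enter no comparison. In each library 7 of the 9 members were lower in them than in all cells with a hashtag, and 3 values stood above those of all vehicle cells with intervals that did not overlap. Slamf7 was at 15.9 CPM (40 UMIs) in the 540 such barcodes of the liver-labelled library, against 7.73 CPM in vehicle cells. In the 1627 such barcodes of the spleen-labelled library, Slamf6 was at 28.9 CPM (135 UMIs) against 11.6 CPM, and Slamf1 at 8.78 CPM (41 UMIs) against 3.09 CPM. In all cells with a hashtag Slamf7 was at 9.09 CPM in the liver-labelled library. Slamf6 and Slamf1 were at 15.3 and 7.07 CPM in those of the spleen-labelled library, so Slamf1 was nearer to these than to vehicle cells. The shares of all genes lower or above in these barcodes are not given here. They were assigned no class, so the part of their makeup was not tested.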

How the results depend on the processing

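No paired analysis was possible because each group was 1 pool per library and no test was made. The high dose to vehicle ratio of Cd84 in neutrophil-like cells was below 0 under all 14 alternatives in each library, and it was called under 14 in the liver-labelled library and 11 in the spleen-labelled library. In the former (−1.87) it was −2.08 at resolution 0.4, −2.43 as a mean over cells, −1.57 with monocyte-like cells added and −1.65 with TMM factors. In the latter (−1.23) it was −0.79 under the cell filter (at least 200 genes, under 10% mitochondrial), −1.96 as a mean over cells and −0.83 with monocyte-like cells. The low dose ratio (−0.32) was −0.53 as a mean over cells and −0.20 with TMM factors in the liver-labelled library, and (0.25) was 0.47 under the cell filter and −0.21 as a mean over cells in the other, where its sign thus turned. The ratio between libraries in vehicle cells (−1.31) was −1.87 under the cell filter, −0.74 with classes from markers in each cell, −1.07 as a mean over cells and −1.69 at resolution 0.4.

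The vehicle level of Cd84 (246 and 99.1 CPM) was 484 and 180 CPM without the 20 most abundant genes, 202 and 121 CPM with classes from markers in each cell, 535 and 256 CPM as a mean over cells, 317 CPM at resolution 0.4 (liver-labelled library) and 67.3 CPM under the cell filter (spleen-labelled library). Shares of cells with Cd84 were 35.9% and 26.9% in vehicle and low dose cells of the liver-labelled library at 1000 UMIs, and 74.1%, 67.8% and 62.8% in vehicle, low and high dose cells without thinning. In the other they were 20.4% and 16.8% at 1000 UMIs and 46.4%, 41.9% and 35.5% without thinning. At the vehicle mix of clusters the high dose ratio (−0.54) was −0.88 with MULTIseqDemux, −1.17 with the dominant hashtag, −0.85 at resolution 0.4 and −0.14 at resolution 1.6 in the liver-labelled library, and (−0.74) was −1.09 with the dominant hashtag in the other.

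The 6 members called at the high dose in the liver-labelled library became 10 with classes from markers in each cell, and the 7 in the other became 12 as a mean over cells, where a call needs the fold alone. Called members at the low dose went from 0 to 1 (Scrublet, classes from markers, dominant hashtag) and 2 (mean over cells) in the liver-labelled library, and from 1 to 2 (MULTIseqDemux, classes from markers, no minimum of UMIs), 3 (cell filter, mean over cells) and 0 (resolution 0.4) in the other. Called partners at the high dose went from 2 to 1 (TMM, classes from markers, dominant hashtag), 4 (mean over cells) and 0 (resolution 1.6), and from 0 to 1 (MULTIseqDemux, Scrublet, dominant hashtag, resolution 1.6, no minimum), 2 (resolution 0.4) and 4 (mean over cells). At the low dose they went from 0 to 1 (dominant hashtag, no minimum) and 4 (mean over cells), and from 0 to 1 (MULTIseqDemux, mixed T cell-like cluster left out, dominant hashtag) and 2 (mean over cells). Slamf7 in macrophage-like cells of the spleen-labelled library turned to 0.24 with classes from markers in each cell. The causes were not tested. The share of all genes called under each alternative is not given here, so these counts cannot be set against it. The alternative without the mixed T cell-like cluster and that without barcodes found in both libraries were chosen after seeing the data. Of the other 119 member ratios, 91 stayed inside their interval under every alternative. Depth limited Slamf8, Slamf9 and all classes of under 100 cells, where a difference of 2-fold was often not detectable.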

Other observations

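Slamf9 in plasmacytoid dendritic cell-like cells of the spleen-labelled library was at 55.0 CPM in 5 vehicle, 282 CPM in 8 low dose and 346 CPM in 12 high dose cells, with 2 vehicle UMIs. In T cell-like cells of that library 0 vehicle and 21 high dose UMIs of Slamf9 were counted. The high dose level was 1.16-fold the limit that 3 counts allow in vehicle cells. That value leaves out the counting error of the 21 UMIs. The interval of the ratio did not leave out 1, and the difference was not called.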
